A study of Drosophila melanogaster with 3 samples.

Results

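The genes for translation initiation and elongation factors of Drosophila melanogaster were examined for promoter peaks of the tagged ETS-family transcription factor Ets21C-eGFP. They were taken by name from the Ensembl BDGP6 annotation, as protein-coding genes whose name begins with eIF or eEF followed by a digit, which gave 51 of 13945 protein-coding genes. The rule itself uses names and no peak values. The optimal list is the authors' list of peaks that passed a threshold of reproducibility. A promoter peak in that list was found at 11 of the 51 genes (21.6%), beside 15.2% of all protein-coding genes. The highest of these peaks by far was at eIF6, which encodes a factor that keeps the large ribosomal subunit from joining the small one too early. The few genes of eIF2 and of its exchange factor eIF2B had none. The peak at eIF6 was also the only optimal promoter peak of these genes that replicate 1 held.

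The measurements were chromatin immunoprecipitation with sequencing (ChIP-seq) on whole white prepupae, the stage at which the larva stops moving and metamorphosis begins. All 3 samples were biological replicates of 1 group: the transgenic strain d.ets6-GFP, which carries Ets21C with GFP joined to its C-terminus, with males and females pooled and the age given as unknown. Chromatin was sonicated to 200 to 800 bp and precipitated with an antibody against GFP, so the signal is that of the tagged transgene product. No untagged or control sample was analysed here. In whole animals, fewer cells with the factor at a promoter and less factor per cell cannot be told apart. The labelled stage and tissue could not be checked against markers, because peak lists hold no expression values.

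Translation begins when the small ribosomal subunit, with initiator tRNA brought by eIF2, is loaded on the capped end of an mRNA and scans to the start codon. The eIF4 factors bind the cap and unwind the mRNA, the large eIF3 complex scaffolds the loading, eIF1, eIF1A and eIF5 check the start codon, and eIF5B joins the large subunit. Elongation then uses eEF1 to bring aminoacyl-tRNA, eEF2 to move the ribosome along and eEF5, known as eIF5A in mammals, to relieve stalling. These factors are made in every growing cell, and several of them are limiting points at which translation is regulated.

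The sequences under 5 of the optimal peaks are shown first, as examples. The summits with the most G and C are not among them, and the printed stretches had 27.4 to 41.8% G and C. They were read from the Release 6 genome of RefSeq, on the strand of the translation factor gene and 5′ to 3′. They run up to 100 bases to either side of the summit and stop where an annotated exon begins, and the summit is base 101 in each. Capitals mark any of 9 listed words on either strand, and at the eIF3h summit there was none.
eIF4EHP, chr3R:24109130-24109330, minus strand: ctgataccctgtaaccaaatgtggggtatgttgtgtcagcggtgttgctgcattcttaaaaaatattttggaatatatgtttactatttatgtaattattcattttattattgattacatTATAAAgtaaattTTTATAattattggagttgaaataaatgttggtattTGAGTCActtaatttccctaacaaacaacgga
eIF3h, chr2L:5052398-5052598, minus strand: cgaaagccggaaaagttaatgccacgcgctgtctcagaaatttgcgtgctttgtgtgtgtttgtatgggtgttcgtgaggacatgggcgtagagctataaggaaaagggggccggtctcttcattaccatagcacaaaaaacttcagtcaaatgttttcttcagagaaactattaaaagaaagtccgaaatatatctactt
eEF1gamma, chr3R:29220028-29220171, plus strand: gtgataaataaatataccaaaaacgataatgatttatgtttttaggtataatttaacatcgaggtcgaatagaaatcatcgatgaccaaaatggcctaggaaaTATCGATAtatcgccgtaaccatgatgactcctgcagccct
eIF1, chr3L:3223150-3223340, plus strand: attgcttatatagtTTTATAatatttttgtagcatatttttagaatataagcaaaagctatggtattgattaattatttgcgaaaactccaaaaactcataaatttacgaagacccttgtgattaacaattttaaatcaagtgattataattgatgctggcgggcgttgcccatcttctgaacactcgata
eEF2, chr2L:21682165-21682265, minus strand: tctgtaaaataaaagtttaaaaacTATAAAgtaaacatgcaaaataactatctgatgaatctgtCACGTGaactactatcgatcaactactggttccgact
The eIF4EHP summit lay in a stretch with 13.9% G and C in the 50 bases to either side, the lowest of the 12 summits at these genes. The eIF4EHP sequence holds the AP-1 word TGANTCA, as TGAGTCA, and the TATA-like word TTTATA on both strands. The eEF1gamma sequence holds TATCGATA, the word of the DNA replication-related element (DRE), a common element of housekeeping promoters in flies. The eEF2 sequence holds the E-box CACGTG and 1 TATA-like word, and the eIF1 sequence holds 1 TATA-like word.

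A promoter peak is a peak whose summit lay within 500 bp of any annotated transcription start site (TSS) of the gene. Its height is given as signal, the value in the authors' deposited list. The optimal list held 4505 peaks with a median signal of 192 and a lowest signal of 109, the list from pooled replicates held 27085, and those of replicates 1, 2 and 3 held 30000, 28006 and 30000. For each replicate, a top list was made of the 4505 peaks with the highest signal, to match the length of the optimal list. Signals cannot be compared directly between lists, so heights in a replicate are also given relative to the median of its top list, which was 40.5, 62.7 and 91.6 in replicates 1, 2 and 3. An optimal peak need not be in the lists of several replicates. At kra and at the ribosomal protein gene RpL14, each with an optimal promoter peak of signal 287, only replicate 3 held a promoter peak. Replicate 1 stood apart from the others at promoters in general. Its top list reached the promoters of 8.68% of all protein-coding genes, against 17.4% for replicate 2 and 18.6% for replicate 3.

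Of the translation factor genes, 11 of 51 (21.6%, exact 95% interval 11.3 to 35.3%) had an optimal promoter peak, against 15.2% of all protein-coding genes. The ratio of the shares was 1.42, and the background of 15.2% lay inside the interval. With the pooled list, which also holds weak calls and background, 23 of 51 (45.1%) had a promoter peak, against 36.6% of all genes. Restricted to optimal peaks that the top lists of replicates 1 and 3 both held, 1 member (eIF6) remained and the ratio was 0.33. With those of replicates 1 and 2 it was again eIF6 alone, with a ratio of 0.302, and with those of replicates 2 and 3 there were 7 members and a ratio of 1.27. The settings with replicate 1 only repeat that its top list held eIF6 alone of the optimal promoter peaks at members.

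The replicates gave different counts. In the top list of replicate 1, 2 of the 51 genes had a promoter peak (3.92%, interval 0.478 to 13.5%), against 8.68% of all genes. In replicate 2 there were 13 (25.5%, interval 14.3 to 39.6%), against 17.4% of all genes. In replicate 3 there were 12 (23.5%, interval 12.8 to 37.5%), against 18.6% of all genes. The share was thus below the background in replicate 1 and above it in replicates 2 and 3, and each of the 3 backgrounds lay inside its interval. The ratio to the background was 0.452, 1.46 and 1.26 in replicates 1, 2 and 3, a mean of 1.06 ± 0.534 (SD, n = 3), so the mean was within the spread between replicates of a ratio of 1.

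The difference between replicates was clearest at the genes with an optimal promoter peak. Of those 11 translation factor genes, 1 (9.09%) had a promoter peak anywhere among the 30000 peaks of replicate 1, while all 11 had a promoter peak in the whole lists of replicates 2 and 3. Of the 2118 protein-coding genes with an optimal promoter peak, 1094 (51.7%) had a promoter peak in the whole list of replicate 1. For replicates 2 and 3 these shares were 97.6% and 99.5%, so there the members were at the background. Conversely, 8 members (15.7%) were in the top lists of replicates 2 and 3 but not of replicate 1, against 7.08% of all genes. A single member (1.96%) had a promoter peak in every top list, against 5.95% of all genes, and 16 (31.4%) were in any top list, against 24.2%. In the whole replicate lists, members with a promoter peak numbered 6, 27 and 38 in replicates 1, 2 and 3 (11.8%, 52.9% and 74.5%), against 22.4%, 39.6% and 52.1% of all genes. Both eIF6 and eIF4G1 were in all 3 whole lists (3.92%), against 11.6% of all genes. Why replicate 1 differed was not tested.

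**Figure D1:**
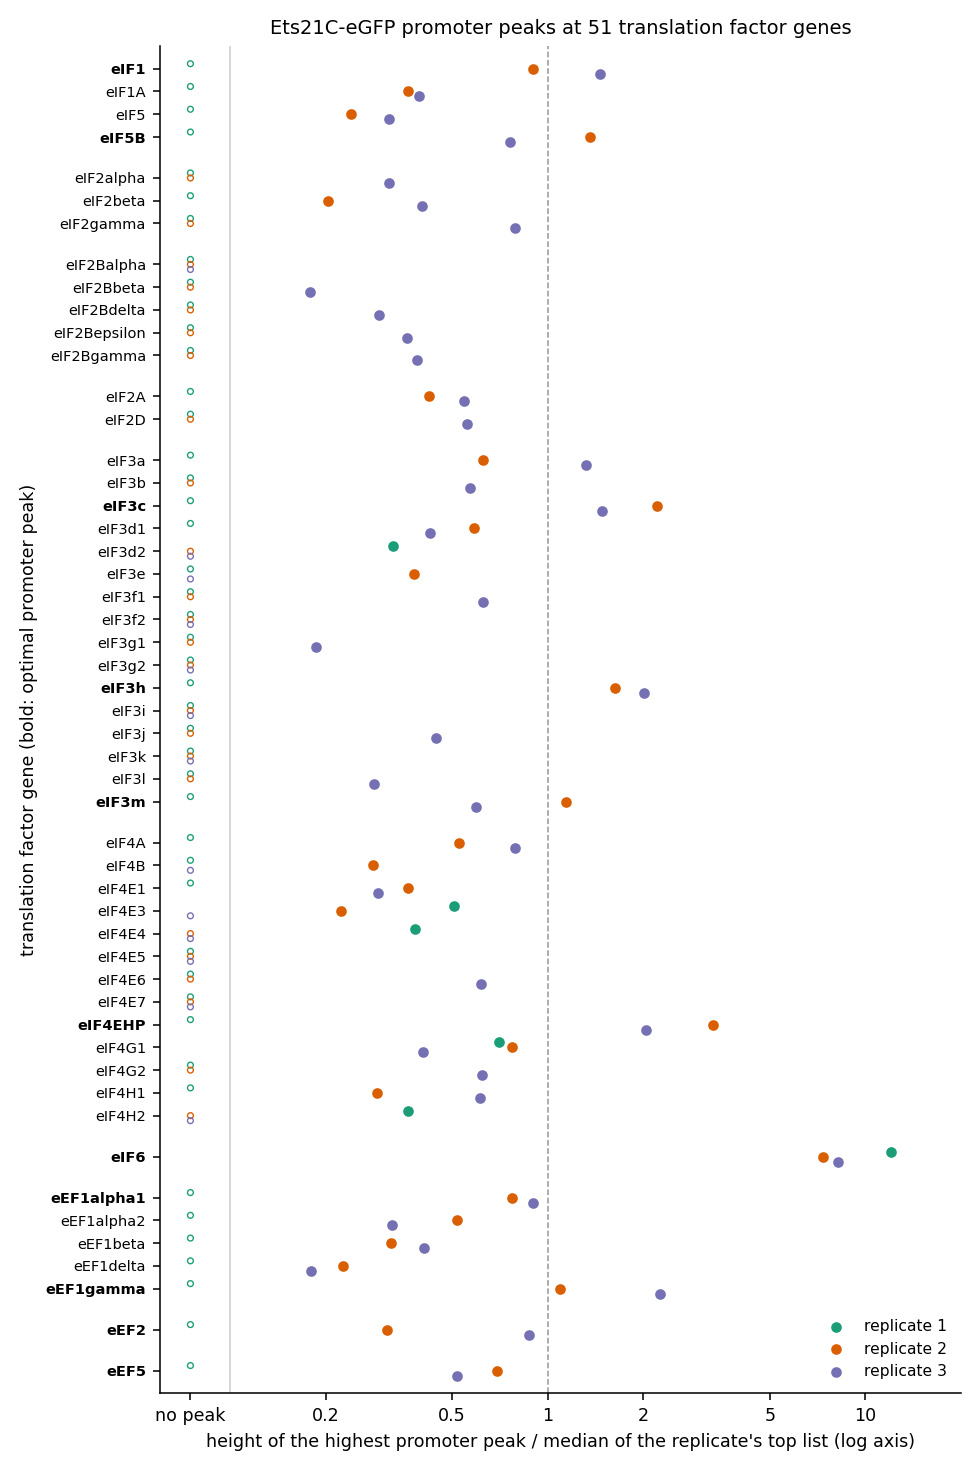
The highest promoter peak of each of the 51 genes in replicates 1, 2 and 3, as signal divided by the median of the replicate's top list (log axis, dashed line at 1), with open circles where a replicate held no promoter peak and names in bold where the optimal list held a peak. The points of eIF6 lie far to the right of all others, at 12, 7.34 and 8.2, and the points of replicate 1 are missing for 45 of the 51 genes.

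The single peak found in every top list was that of eIF6 (FBgn0034915). It lay at 2R:23850226-23850580 with its summit 104 bp upstream of the TSS, and its signal of 1706 ranked 40 of the 4505 optimal peaks. The signal was 487 in replicate 1, 460 in replicate 2 and 751 in replicate 3, at ranks 36, 48 and 41 of these lists. Relative to the top-list medians the heights were 12, 7.34 and 8.2, a mean of 9.19 ± 2.49 (SD, n = 3). The summits in the 3 replicates lay 10, 18 and 4 bp from the optimal summit, so all placed the peak at the same position. An antisense noncoding RNA gene, asRNA:CR45928, has a TSS 75 bp from this summit, and no other protein-coding TSS was within 500 bp.

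The eIF4 factors recognise the mRNA cap and unwind the leader. Among their 13 genes, 1 had an optimal promoter peak, 8 had a pooled peak and 7 had a promoter peak in the whole lists of each of replicates 2 and 3. The shares over all protein-coding genes were 15.2% for the optimal list, 36.6% for the pooled list and 39.6% and 52.1% for the whole lists of replicates 2 and 3. The optimal peak was at eIF4EHP (FBgn0053100), whose product binds the cap without eIF4G and so represses translation of its targets. It lay at 3R:24109129-24109368, with a signal of 510 and rank 502. Its signal was 208 in replicate 2 and 110 in replicate 3, and replicate 1 held no promoter peak there. The summit was 270 bp upstream of the eIF4EHP TSS and 106 bp upstream of that of CG18428, between the starts of both genes, so the peak is nearer to CG18428. Replicate 3 held a higher peak, with a signal of 187, at 140 bp from the eIF4EHP TSS.

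The gene just outside the optimal list was eIF4G1 (FBgn0023213), the scaffold that links the cap-binding protein to the helicase and to eIF3. Its pooled promoter peak had a signal of 107, against the lowest optimal signal of 109. It had a signal of 28.4 in replicate 1, 48.5 in replicate 2 and 37 in replicate 3, which in relative height is a mean of 0.626 ± 0.196 (SD, n = 3). The summits were 275, 139 and 98 bp upstream of the TSS in replicates 1, 2 and 3. Those of replicates 2 and 3 were thus within 100 bp of each other, and that of replicate 1 lay farther off. The other eIF4 genes with a pooled but no optimal peak were eIF4A, the helicase itself (86.8), eIF4E1, the main cap-binding protein (83.5), eIF4H1 (59.7), eIF4E6 (55.5), eIF4E4 (42.8) and eIF4B (36.6), each value being a pooled signal. Of these, eIF4A reached a top list, with a signal of 72.3 in replicate 3 against 33 in replicate 2.

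The scaffold complex eIF3 has 16 genes here, counting paralogues. Of them, 3 (18.8%) had an optimal promoter peak, which is near the 15.2% of all protein-coding genes. The highest was at eIF3c (FBgn0034258), a core subunit, at 2R:17665517-17665775, with a signal of 405, rank 737 and a summit 86 bp upstream of the TSS. Its signals were 138 in replicate 2 and 136 in replicate 3, that is 2.21 and 1.48 times the top-list medians. A subunit outside the core, eIF3h (FBgn0022023), had 2 optimal peaks. The higher lay in its intron at 2L:5052344-5052549, with a signal of 381, rank 814 and a summit 282 bp downstream of a TSS. It had a signal of 103 in replicate 2 and 184 in replicate 3. The lower, at 2L:5052514-5052913, had a signal of 139 and a summit 66 bp downstream of the TSS. The start of the neighbouring gene senju, on the other strand, lay 345 bp from the higher summit and 129 bp from the lower. The peak at eIF3m (FBgn0033902), 2R:14164726-14165125, had a signal of 181 and lay 101 bp upstream of eIF3m and 125 bp upstream of CG8323. It had a signal of 71.3 in replicate 2 and 42 in replicate 3. All of these eIF3 peaks were absent from the list of replicate 1.

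Among the other eIF3 genes, eIF3a, the largest subunit, had a promoter peak of signal 39.1 in replicate 2 and 121 in replicate 3. Both were in the top lists, yet there was no pooled peak. Another protein-coding TSS lay 70 bp from that of eIF3a, so these peaks cannot be assigned to eIF3a alone. The gene eIF3d1, whose human counterpart can contact the cap, was in the top list of replicate 2 with a signal of 36.6 and had a pooled signal of 71.9. The genes eIF3b, eIF3f1, eIF3g1, eIF3j and eIF3l had a promoter peak in replicate 3 only, with signals of 17 to 57.1 that were all outside the top list. At eIF3f1 the peak was just outside it, at rank 4506. Replicate 2 alone held a peak at eIF3e (23.7). No replicate held a promoter peak at eIF3f2, eIF3g2, eIF3i or eIF3k. Genes of the same complex thus spanned the range from a signal of 405 in the optimal list to no peak in any list.

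The factors of start-codon recognition and subunit joining had optimal peaks at 2 of 4 genes, a small group, beside 15.2% of all protein-coding genes. The peak of eIF5B (FBgn0026259), the GTPase of subunit joining, was at 3L:3460555-3460954 with a signal of 233 and rank 1719, in an exon of the longer transcript and 152 bp upstream of another TSS. Its signals were 85 in replicate 2 and 69.9 in replicate 3. The peak of eIF1 (FBgn0035423), a factor that guards start-codon choice, was at 3L:3223050-3223449 with a signal of 134, 91 bp upstream of eIF1 and 290 bp upstream of RpL28, a gene for a ribosomal protein on the other strand. Within 100 bp of that summit the signals were 36.8 in replicate 2 and 48.4 in replicate 3. Each of these replicates held a higher peak between the starts of both genes, of 56.5 in replicate 2 and 134 in replicate 3, 316 and 315 bp upstream of eIF1 and so nearer to RpL28. Neither eIF1A (22.7 in replicate 2 and 35.9 in replicate 3) nor eIF5 (15.1 and 29) was in a top list.

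Genes for initiator tRNA delivery had no optimal promoter peak, beside 15.2% of all protein-coding genes. With only 10 genes, a count of none is close to that share. With a window of 1000 bp, eIF2Bbeta had an optimal peak. Of the 3 eIF2 genes, eIF2gamma, the GTPase subunit, was in the top list of replicate 3 with a signal of 72.2 (rank 3228). It was absent from the lists of replicates 1 and 2. A TSS of eIF2gamma is at the same position as that of another protein-coding gene, so this peak may not be its alone. The gene of the regulatory subunit that stress kinases phosphorylate, eIF2alpha, had 29 in replicate 3 alone, and eIF2beta had 12.8 in replicate 2 and 36.8 in replicate 3. Of the 5 eIF2B genes, 4 had a promoter peak in replicate 3 alone, with signals of 16.3 to 35.5, all below the end of its top list at 57.1, and eIF2Balpha had none in any list. Both eIF2A and eIF2D had signals of about the same size in replicate 3, 49.8 and 50.9, below its top list. Apart from eIF2gamma, these 10 genes thus had signals outside every top list or no peak, and most of their peaks were in replicate 3, whose whole list reached the promoters of 52.1% of all protein-coding genes.

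Elongation factor genes had an optimal promoter peak at 4 of 7 (57.1%, exact 95% interval 18.4 to 90.1%), against 7 of 44 initiation factor genes (15.9%, interval 6.64 to 30.1%) and 15.2% of all protein-coding genes. The intervals overlap. With only the optimal peaks that the top lists of both other replicates held, the counts were 2 of 7 and 5 of 44 without replicate 1, against 10.8% of all genes. Without replicate 2 or without replicate 3 they were 0 of 7 and 1 of 44, against 5.94% and 6.49% of all genes. Both of these settings keep only peaks in the top list of replicate 1. Of the member peaks in the optimal list, that top list held eIF6 alone, so these counts repeat this and show nothing further about elongation factors. In the upper part of the optimal list by signal the counts were 1 of 7 and 5 of 44, against 9.18% of all genes. In the top lists of replicates 1, 2 and 3, the counts for elongation factor genes were 0, 3 (42.9%) and 3 (42.9%) of 7. For initiation factor genes they were 2 (4.55%), 10 (22.7%) and 9 (20.5%) of 44. The shares over all protein-coding genes were 8.68%, 17.4% and 18.6%. The optimal peaks of elongation factor genes were of moderate or low height. The highest was at eEF1gamma (FBgn0029176), a subunit of the exchange factor of eEF1, at 3R:29219964-29220207, with a signal of 316, rank 1096 and a summit 44 bp upstream of the TSS. It had 68.5 in replicate 2 and 207 in replicate 3, which are 1.09 and 2.26 times the top-list medians. The gene of the tRNA carrier itself, eEF1alpha1 (FBgn0284245), had a peak of signal 189 at 2R:11891814-11892213. It lay in an intron, 108 bp upstream of 1 of its 4 TSS, with signals of 48.3 in replicate 2 and 82.2 in replicate 3.

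The remaining elongation factor peaks were near the lower end of the optimal list. At eEF2 (FBgn0000559), the translocase, the peak at 2L:21681965-21682364 had a signal of 122 and rank 4004, with its summit 1 bp upstream of the TSS. The replicates differed there, with 19.5 (rank 10731) in replicate 2 and 80 (rank 2764) in replicate 3. The peak at eEF5 (FBgn0285952), 2R:24057577-24057976, had a signal of 114 and rank 4320, with 43.4 in replicate 2 and 47.5 in replicate 3. Without an optimal peak were eEF1alpha2 (32.4 in replicate 2 and 29.6 in replicate 3), eEF1beta (20.1 and 37.3) and eEF1delta (14.2 and 16.5). Every elongation factor gene had a promoter peak in the whole lists of replicates 2 and 3, and none of the 7 had a promoter peak in that of replicate 1, against 39.6%, 52.1% and 22.4% of all protein-coding genes in the lists of replicates 2, 3 and 1.

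**Figure D2:**
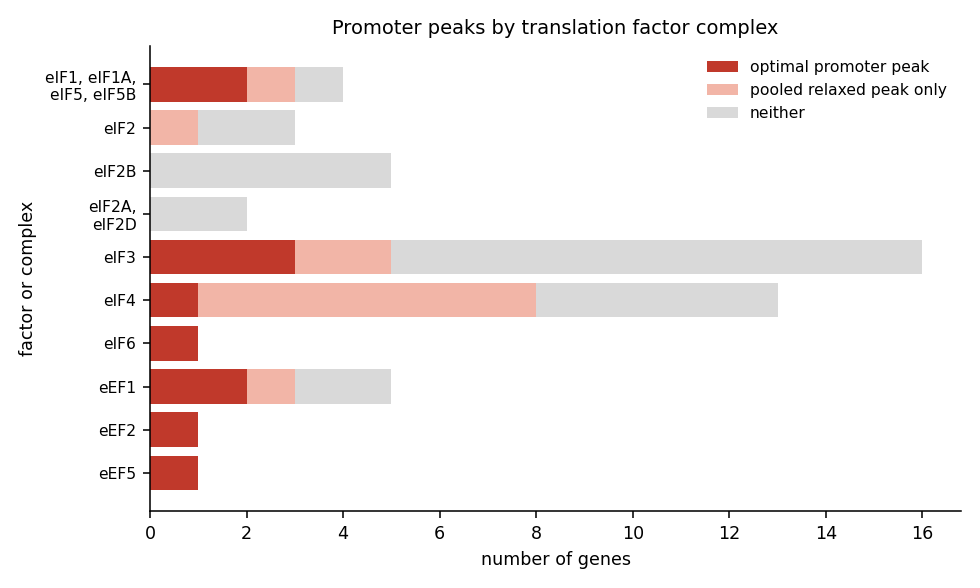
Number of genes per factor or complex with an optimal promoter peak, with a pooled promoter peak only, or with neither. An optimal peak was present at 3 of 16 eIF3 genes and 1 of 13 eIF4 genes. It was present at 2 of 5 eEF1 genes and at none of the 5 eIF2B genes. The share over all protein-coding genes was 15.2%.

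Several factors are encoded by a widely used gene and by paralogues of more restricted use. Among these, eEF1alpha1 had an optimal signal of 189, and eEF1alpha2 had no optimal or pooled peak. For eIF3d, eIF3f, eIF3g and eIF4H, the copy numbered 1 had a promoter peak in replicate 3 (39.1, 57.1, 17 and 55.9) and the copy numbered 2 did not. For eIF4G the order was the other way in replicate 3, with 57 at eIF4G2 (rank 4528, just outside the top list) and 37 at eIF4G1. Replicates 1 and 2 held eIF4G1 alone. A TSS of eIF4G2 is also at the same position as that of another protein-coding gene, so its peak may not be its alone. In replicate 1 the copies numbered 2 of eIF3d and eIF4H had weak peaks of 13.1 and 14.6, while the copies numbered 1 had none. Of the eIF4E paralogues, eIF4E3 had 20.5 in replicate 1 and 14.0 in replicate 2, and eIF4E4 had 15.4 in replicate 1 alone. No replicate list held a promoter peak at eIF4E5 or eIF4E7. Apart from eIF6 and eIF4G1, the members that replicate 1 held were these 4 paralogues, all below its top list, which ended at a signal of 24.9.

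Upstream placing and height of the member peaks were close to those of promoter peaks in general, while the member summits lay nearer the TSS. For the highest optimal promoter peak of each gene, the median summit position was -91 bp at 11 members and -145 bp over 2118 genes. Negative is upstream, and the quartiles were -106 to -32.5 bp and -229 to -81 bp, which overlap. The highest optimal promoter peak had its summit upstream of the TSS at 10 of 11 members (90.9%), against 88.4% of the 2118 genes with such a peak. The median signal of these highest peaks was 233 at members, against 226 over all genes. Of the 12 member peaks, 5 (41.7%) lay near the TSS of at least 2 protein-coding genes, against 36.6% of 1683 promoter peaks, and for these the peak cannot be assigned to the translation factor gene alone. The 500 bp window decided little. The members farthest inside it were eIF3h at 282 bp and eIF4EHP at 270 bp, and the nearest outside was eIF2Bbeta, 680 bp from an optimal summit of signal 3068 at the promoter of Ugalt. Of the 40 members without an optimal promoter peak, 34 had no optimal summit within 5000 bp. The matching share over all protein-coding genes is not given here, so this count cannot be read as a trait of the members.

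Members with several start sites had an optimal promoter peak at 8 of 20 (40%), and members with 1 TSS at 3 of 31 (9.68%). Over all protein-coding genes the shares were 27.4% with several TSS and 10.8% with 1, so the same direction was seen there, and more TSS also give more windows in which a summit can fall. Where another protein-coding TSS lay within 500 bp, 6 of 20 members (30%) had an optimal peak, and without such a neighbour 5 of 31 (16.1%), against 27.2% and 9.84% of all genes. By arm, 5 of 12 members on 2R had an optimal promoter peak and 0 of 7 on X, against 12.8% and 17% of all genes on these arms.

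The member summits had a higher median of G and C than promoter peaks in general, over few peaks, with eIF3h counted at both of its peaks. Ribosomal protein and aminoacyl-tRNA synthetase genes were not compared for this, so it need not be particular to the members. The median within 50 bp of the summit was 42.6% over the 12 member peaks, with a range of 13.9 to 52.5%, against 32.7% over 1683 promoter peaks. Of the member summits, 9 of 12 (75%, exact 95% interval 42.8 to 94.5%) were at or above that median. The lowest was that of eIF4EHP, printed above, and the highest were those of eIF5B (52.5%), eEF5 (49.5%) and the lower eIF3h peak (47.5%). The peak of eIF6, the highest in signal, had 35.6%.

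**Figure D3:**
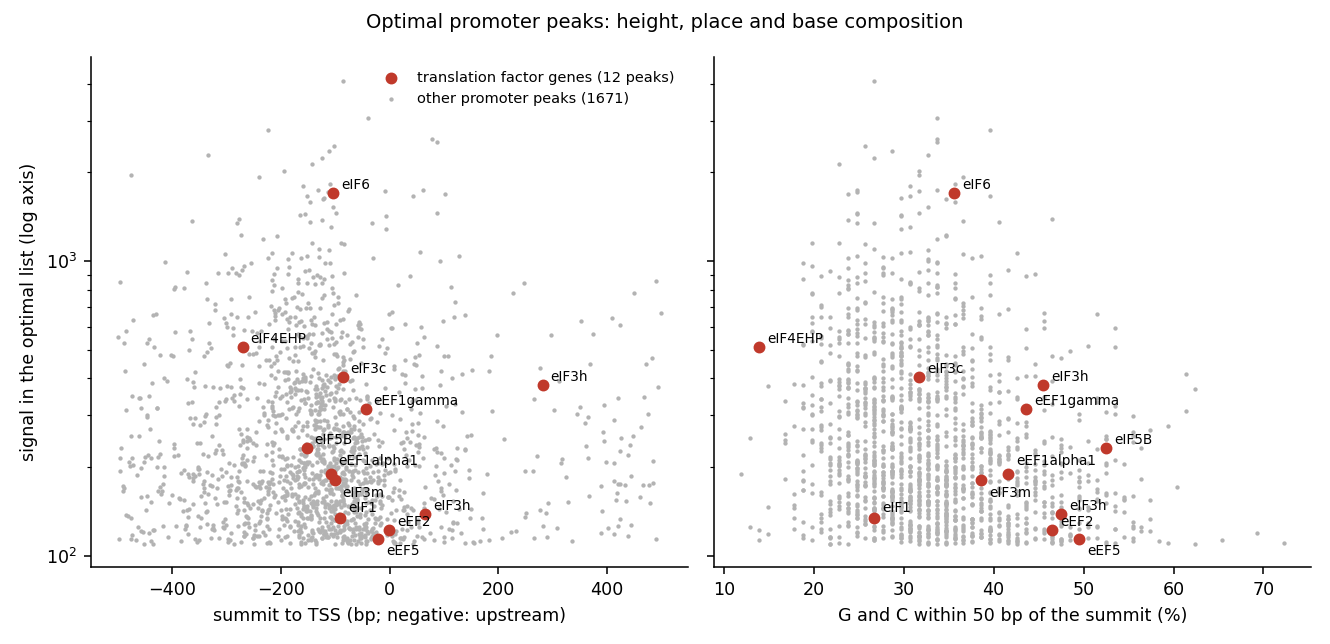
Signal of each optimal promoter peak (log axis) against the distance of its summit from the TSS in bp (left) and against the share of G and C within 50 bp of the summit in percent (right), with the 12 peaks of translation factor genes in red and the other 1671 promoter peaks in grey. The red points lie mostly upstream of the TSS like the grey ones, and 9 of 12 are at or above 32.7% G and C.

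Among 9 words searched on both strands, the DRE word TATCGATA stood highest above its background in these promoters, taken as 250 bases before to 50 after the gene start. It was in 14 of 51 member promoters (27.5%), against 9.36% of all protein-coding promoters. Member promoters with the word had an optimal peak at 3 of 14 (21.4%) and those without it at 8 of 37 (21.6%), while over all genes the shares were 21.4% with the word and 14.5% without. Among the DRE promoters were those of eEF1gamma, eIF3c and eIF6, with optimal peaks, and of eIF2alpha, eIF2gamma and eIF4A, without. Within 100 bp of the summits the word was at 2 of 12 member peaks, those of eEF1gamma and eIF6, against 5.82% of promoter peaks.

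The ETS word CCGGAAG was in no member promoter and at no member summit, against 1.09% of all promoters and 0.713% of promoter summits. Its core GGAAG, a part of it, was in 10 of 51 member promoters (19.6%), against 27.8% of all, and at 1 of 12 summits, that of eEF1alpha1, against 17.9%. The AP-1 word TGANTCA was in 1 member promoter, that of eIF4EHP, against 6.18% of all promoters, and at the same gene's summit, against 4.58% of promoter summits. The word GGTCACAC, bound by the promoter factor M1BP, was in 6 member promoters (11.8%, against 7.7%), and the E-box CACGTG in 4 (7.84%, against 4.2%). A word of the GATA factors, written AGATAA, was in 8 (15.7%, against 18.7%). The repeat GAGAGAG was in 1 (1.96%, against 5.87%), and the TATA-like word TTTATA was in 23 (45.1%, against 45.8%). These are matches of letters in a window and not measured sites.

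Cytosolic ribosomal protein genes, whose products form the ribosome itself, were scored in the same lists. Optimal promoter peaks were found at 11 of 51 translation factor genes (21.6%, interval 11.3 to 35.3%), against 43 of 92 cytosolic ribosomal protein genes (46.7%, exact 95% interval 36.3 to 57.4%), and these intervals for counting error do not overlap. In the top list of replicate 1 the counts were 2 of 51 (3.92%) against 7 of 92 (7.61%), beside 8.68% of all protein-coding genes. In that of replicate 2 they were 13 of 51 (25.5%, interval 14.3 to 39.6%) against 35 of 92 (38%, interval 28.1 to 48.8%), and there the intervals overlap. The share over all protein-coding genes was 17.4%. In the top list of replicate 3 the counts were 12 of 51 (23.5%) against 63 of 92 (68.5%), beside 18.6% of all protein-coding genes. Of the genes with an optimal promoter peak, 1 of 11 translation factor genes and 8 of 43 ribosomal protein genes (18.6%) had a promoter peak in the whole list of replicate 1, beside 51.7% over all protein-coding genes. Aminoacyl-tRNA synthetase genes, whose products charge tRNAs with amino acids, had an optimal peak at 6 of 33 (18.2%, beside 15.2% of all protein-coding genes). In the top lists of replicates 1, 2 and 3 they numbered 3, 8 and 10 (9.09%, 24.2% and 30.3%). The shares over all protein-coding genes were 8.68%, 17.4% and 18.6%.

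**Figure D4:**
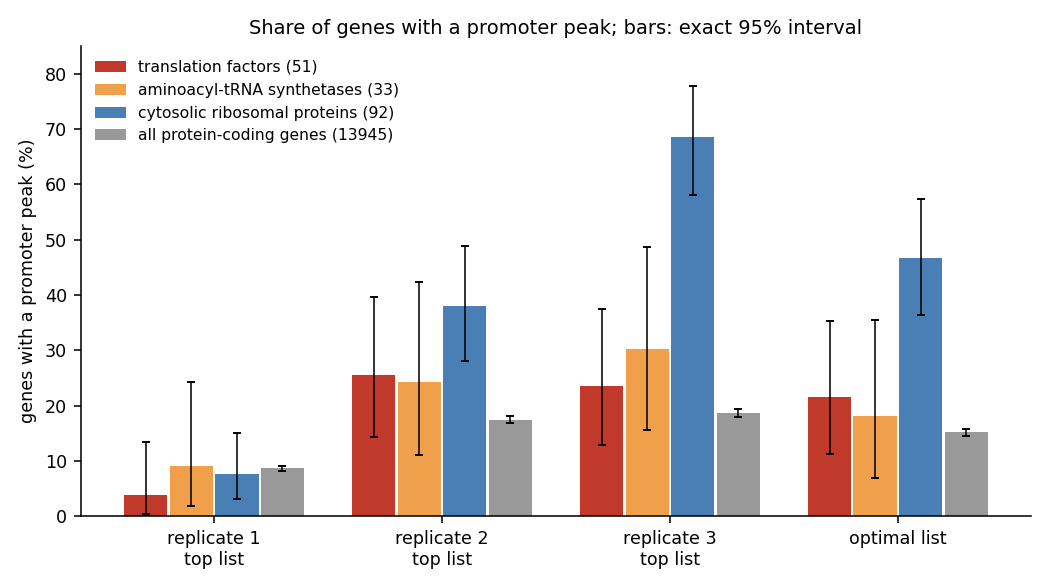
Percent of translation factor, aminoacyl-tRNA synthetase, cytosolic ribosomal protein and all protein-coding genes with a promoter peak in the top list of each replicate and in the optimal list. Error bars are exact 95% intervals for counting error, and the bars of translation factor genes are 3.92%, 25.5%, 23.5% and 21.6% from left to right.

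Other genes of translation were scored from a list of 30 names, of which 28 matched. Of these 28, 5 (17.9%) had an optimal promoter peak, which is near the 15.2% of all protein-coding genes. They were pAbp, the poly(A)-binding protein (449, with its summit 472 bp downstream of the TSS), kra, a regulator related to eIF5 (287), eRF1, the release factor that reads stop codons (225), crc, the fly ATF4 (178), and PPP1R15, a subunit of the eIF2alpha phosphatase (112), the values being signals in the optimal list. The peak at crc was the single such peak in the top lists of all 3 replicates, with signals of 50.3, 50.5 and 107 in replicates 1, 2 and 3. No optimal promoter peak was present at Thor, the fly 4E-BP, at the eIF2alpha kinase genes Gcn2 and PEK, or at S6k, Lk6, Pdcd4, NAT1, eRF3, pix, DENR, MCTS1, 4E-T, cup, mxt, Paip2 and eEFSec. The mitochondrial factor genes mEFG1, mEFTs, mEFTu1, mEFTu2, mIF2, mIF3 and waw had none either.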

How the data were processed

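ChIP-seq peak lists of 3 biological replicates of 1 group were used. Per the deposited sample notes, a list was made for each replicate by setting its alignments against 1 control alignment, the pooled list came from the alignments of all 3, and the optimal list from these by the irreproducible discovery rate. Which aligner and peak caller were used is not given in the sources used here. Signal is the height the authors deposited for each peak, on a scale that is not stated. Reads and counts are not part of the lists, so the depth is unknown. The Release 6 (dm6) lists were used and the dm3 lists were not used here.

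From these, summits were matched to 19252 TSS of protein-coding genes on 2L, 2R, 3L, 3R, 4 and X (Ensembl release 115, 1-based coordinates). Gene and complex were assigned by name. Summits within 100 bp counted as shared between lists. Exact (Clopper-Pearson) 95% intervals cover counting error only. No test was possible between groups, and genes are not replicates. Every member with an optimal promoter peak was named, and the others by complex, by top list or as paralogues. Other TSS windows, peak-to-gene rules, top-list lengths, the upper part of the optimal list and each replicate left out in turn were tried. The members and lists were chosen with earlier results of these data known. Python 3.11.15, pandas 2.3.3, numpy 2.4.6 and scipy 1.17.1 were used, and on simulated peaks the matching placed 200 of 200 summits correctly.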

Additional observations from a re-analysis of the deposited data

How the results depend on the processing

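The count of 11 members with an optimal promoter peak was 10 to 12 under other TSS windows and peak-to-gene rules. It was 6 (11.8%) in the upper part of the optimal list by signal, against 9.18% of all protein-coding genes, a ratio of 1.28. Keeping optimal peaks that both other replicates' top lists held (2906, 2326 or 2497 peaks, without replicate 1, 2 or 3) gave 1 to 7 members, ratios to the background of 0.302 to 1.27, 1 to 5 complexes with a peak in place of 7 of 10, and 0 to 3 other translation genes in place of 5. That last count was 8 with a window of 1000 bp and 3 in the upper part of the list. Members in the top lists of replicates 1, 2 and 3 (2, 13 and 12) were 1, 7 and 7 with lists of 2252 peaks and 6, 27 and 38 in the whole lists. With lists of 9010 peaks replicate 3 held 29, and with a window of 250 bp replicate 1 held 1. The whole lists reached the promoters of 22.4%, 39.6% and 52.1% of all protein-coding genes. For lists of 2252 or 9010 peaks and for the window of 250 bp, the share over all genes in each replicate is not given here. Members in all 3 replicates were 2 with lists of 9010 peaks or whole lists (eIF6 and eIF4G1) and 2 with a window of 1000 bp (eIF6 and eIF2Bbeta). The median member peak ranked in the top 38.2% of the optimal list, 6.35% of the pooled list and 0.12%, 6.64% and 4.12% of the lists of replicates 1, 2 and 3, where replicate 1 gives eIF6 alone. Longer lists hold more peaks by construction, and for the other settings the cause was not tested. The ratio was above 1 in the full optimal list and without replicate 1 (1.27), and below 1 without replicate 2 or 3. Both settings below 1 keep only peaks in the top list of replicate 1. That list held 1 of the 11 members with an optimal promoter peak, so these ratios repeat that count and show nothing further. No paired analysis was possible because all 3 samples belong to 1 group. The unknown depth limits what absence from a list shows.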

Other observations

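Optimal peaks also lay inside the long introns of 2 members. In eIF5B, a peak at 3L:3432703-3433102 had a signal of 196 and lay 27700 bp from the TSS, and another at 3L:3449757-3450156 had a signal of 193 and lay 10646 bp from it. The first had signals of 41, 82.1 and 73.1 in replicates 1, 2 and 3, and the other 57.5, 63.3 and 67.7. Both were thus in all 3 replicate lists, while the promoter peak of the same gene was absent from that of replicate 1. In eIF4EHP, a peak at 3R:24098989-24099388 had a signal of 227, with 59.7 in replicate 2 and 93.1 in replicate 3. A peak at 3R:24106251-24106650 had a signal of 177, with 64.8 in replicate 2 and 87.6 in replicate 3. Neither of the eIF4EHP peaks was in the list of replicate 1.

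Across the 24 members with a promoter peak in both replicates 2 and 3, Spearman's rho between their highest signals was 0.747, and over the 4419 protein-coding genes with such peaks it was 0.763. These are descriptions over genes of the same 2 libraries. The aminoacyl-tRNA synthetase genes with an optimal promoter peak were SerRS (593), GluProRS (471), IleRS (321), AspRS (312), ArgRS (177) and ArgRS-m (170), the values being signals in the optimal list.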
